A study of Mus musculus with 18 samples.

Results

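The 150 genes described here were those whose nascent RNA was most even over 5 stages of red cell formation in mouse fetal liver. They were chosen by measured values. Counts were divided by each library's total and expressed as counts per 1e6 counts (CPM), and the 3 libraries of each population were averaged. Genes with a mouse symbol, not encoded in the mitochondrion, and with a mean of at least 50 CPM in each of the 5 erythroid populations were kept, which left 2897 genes of 54232 identifiers listed, 30157 of which had any count. The 150 members are those of the 2897 with the lowest ratio of the highest to the lowest population mean. That ratio, and every level in the 5 erythroid populations, is therefore a description of how the genes were chosen and no test is attached to it. The Lin+ libraries took no part in the choice.

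The assay was 4sU-seq, in which cells take up 4-thiouridine and the RNA made during the labelling time is biotinylated and purified. All cells came from livers of C57BL/6 embryos at e12.5-e13.5, were rested for 6 h after sorting and were labelled with 500 µM 4sU for 45 min. The lineage-negative populations, with 3 libraries each, were S0-Low (CD71-, Ter119-), S0-Medium (CD71 medium, Ter119-), S1 (CD71 high, Ter119-), S2 (CD71 high, Ter119 medium) and S3 (CD71 high, Ter119 high). They are called erythroid populations here, although by the authors' account S0-Low mixes blood stem and progenitor cells with early erythroid burst-forming cells. Lin+ cells, also with 3 libraries, carried at least 1 of the lineage antigens CD41, CD45R, CD3e, CD11b and Ly-6G/6C. The sources used here do not say whether the 3 replicates came from separate litters, so p-values measure the spread between these libraries.

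Genes that every cell needs, such as those for RNA processing, transcription, protein turnover and membrane traffic, are often called housekeeping genes. Erythroid differentiation is a demanding setting for such a label, because maturing erythroblasts make very large amounts of globin and membrane proteins, shrink, condense their nuclei and stop dividing. A level in CPM is a share of the RNA captured in a library, so an even share does not say that the amount per cell was even, and in bulk samples fewer expressing cells cannot be told apart from less RNA per cell.

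The library totals ran from 9452476 to 40567976 counts. The labels were checked against marker genes. Slc4a1, the erythrocyte anion exchanger, had a mean of 17.7 CPM in S0-Low and 10065 CPM in S3, and Klf1, the erythroid transcription factor, had 166 CPM in S0-Low and 678 CPM in S3. Lin+ cells are labelled as primary erythroblasts, but Slc4a1 was at 9.56 CPM and Klf1 at 21.3 CPM there, while Mpo, the granule peroxidase of myeloid cells, was at 3294 CPM and Lyz2 at 795 CPM. The summed level of 12 neutrophil and monocyte markers was 4755 to 6869 CPM in the Lin+ libraries, 596 to 934 CPM in S0-Low, 14.1 to 203 CPM in S0-Medium and at most 1.58 CPM in S1, S2 and S3. Itgam, the gene for CD11b, had 0 counts in the 18 libraries. The 8 stem and progenitor markers summed to 1610 to 2792 CPM in Lin+ and 2101 to 3258 CPM in S0-Low, and 8 megakaryocyte markers to 490 to 1277 CPM in Lin+. Lin+ is therefore called by its gate, and the part that its mixture of cells plays in the values below was not tested.

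The ratio of highest to lowest erythroid mean ran from 1.05 to 1.24 over the 150 members, with a median of 1.18, against a median of 1.89 over the 2897 genes. The cut fell in a dense stretch of genes. The last 4 members were Ankfy1 (1.24), Ctdspl2 (1.24), 4833420G17Rik (1.24) and Map2k4 (1.24), and the first 4 genes left out were Hmgxb4 (1.24), Herc4 (1.24), 2410001C21Rik (1.24) and Rab5c (1.24), so membership at the edge rests on differences smaller than the second decimal.

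**Figure D1:**
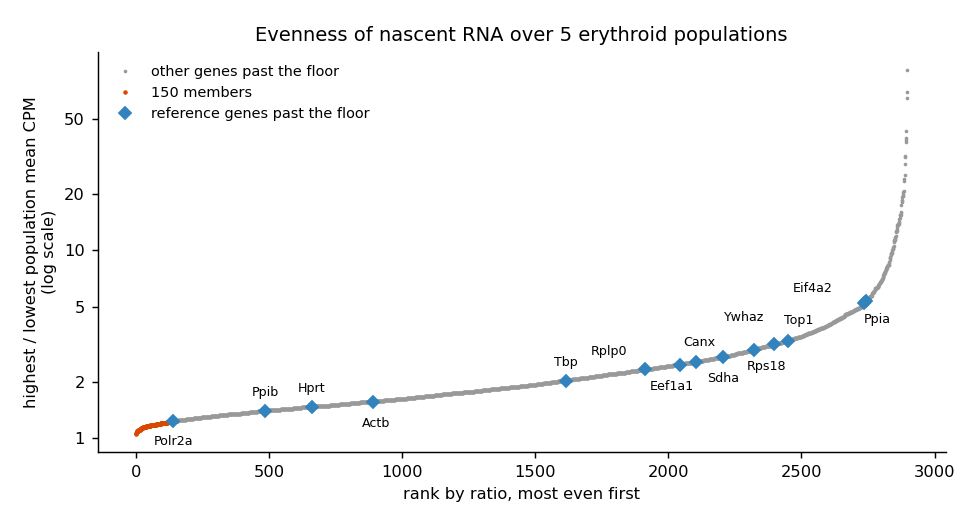
Ratio of the highest to the lowest of the 5 erythroid population means, in CPM by library total (log scale), against rank for the 2897 genes past the floor of 50 CPM. Orange points are the 150 members, grey points the other genes, and blue diamonds the 14 reference genes past the floor, of which Polr2a alone lies among the members.

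The most even gene was Upf2, a core factor of nonsense-mediated mRNA decay (chr2:5951447-6056703, GRCm38.p6). The S0-Low libraries read 163, 139 and 149 CPM, those of S0-Medium 164, 134 and 177 CPM, those of S1 129, 164 and 177 CPM, those of S2 123, 138 and 195 CPM, and those of S3 191, 130 and 136 CPM. The means lay between 150 CPM ± 12.2 (SD, n = 3) in S0-Low and 158 CPM ± 22.3 (SD, n = 3) in S0-Medium, a range narrower than the spread among libraries within any population. Casc3 (chr11:98809808-98833807), a subunit of the exon junction complex that marks spliced mRNA, came next with a ratio of 1.07. It read 116, 135 and 127 CPM in S0-Low and 103, 121 and 155 CPM in S3. Bag1 (chr4:40936398-40948294), a co-chaperone of Hsp70, had a ratio of 1.08, with 151, 136 and 92.1 CPM in S0-Low and 132, 122 and 111 CPM in S3. Ap3d1 (chr10:80706956-80742303), a subunit of the AP-3 adaptor that sorts proteins to lysosomes, had a ratio of 1.09, with 174, 138 and 160 CPM in S0-Low and 160, 129 and 146 CPM in S3. In each of these genes the libraries of S0-Low and S3 overlapped.

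The next 8 in order were Mrpl51 (a mitochondrial ribosomal protein), Ccnl1 (cyclin L1, linked to splicing), Ints9 (a subunit of the Integrator complex), Aak1 (a kinase of clathrin adaptors), Gmeb1 (a DNA-binding protein), March7 (a ubiquitin ligase, Marchf7 in RefSeq), Tpt1 (translationally controlled tumour protein) and Fnip1 (a folliculin partner in nutrient signalling), with ratios from 1.09 to 1.11. For several of them even means were averages of uneven libraries. Aak1 read 221, 149 and 44.9 CPM in the 3 S3 libraries, with a mean of 138 CPM ± 88.4 (SD, n = 3). Tpt1 read 572, 476 and 209 CPM in S0-Low and 542, 578 and 264 CPM in S2. Libraries that carried the same replicate number often deviated together. Ccnl1 was lowest in replicate 1 and highest in replicate 3 in each of the 6 populations, reading 197, 321 and 388 CPM in S0-Low and 209, 300 and 371 CPM in Lin+. Casc3 and Gmeb1 were also lowest in replicate 1 in 6 of 6 populations, and Fnip1 was highest in replicate 3 in 6 of 6.

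**Figure D2:**
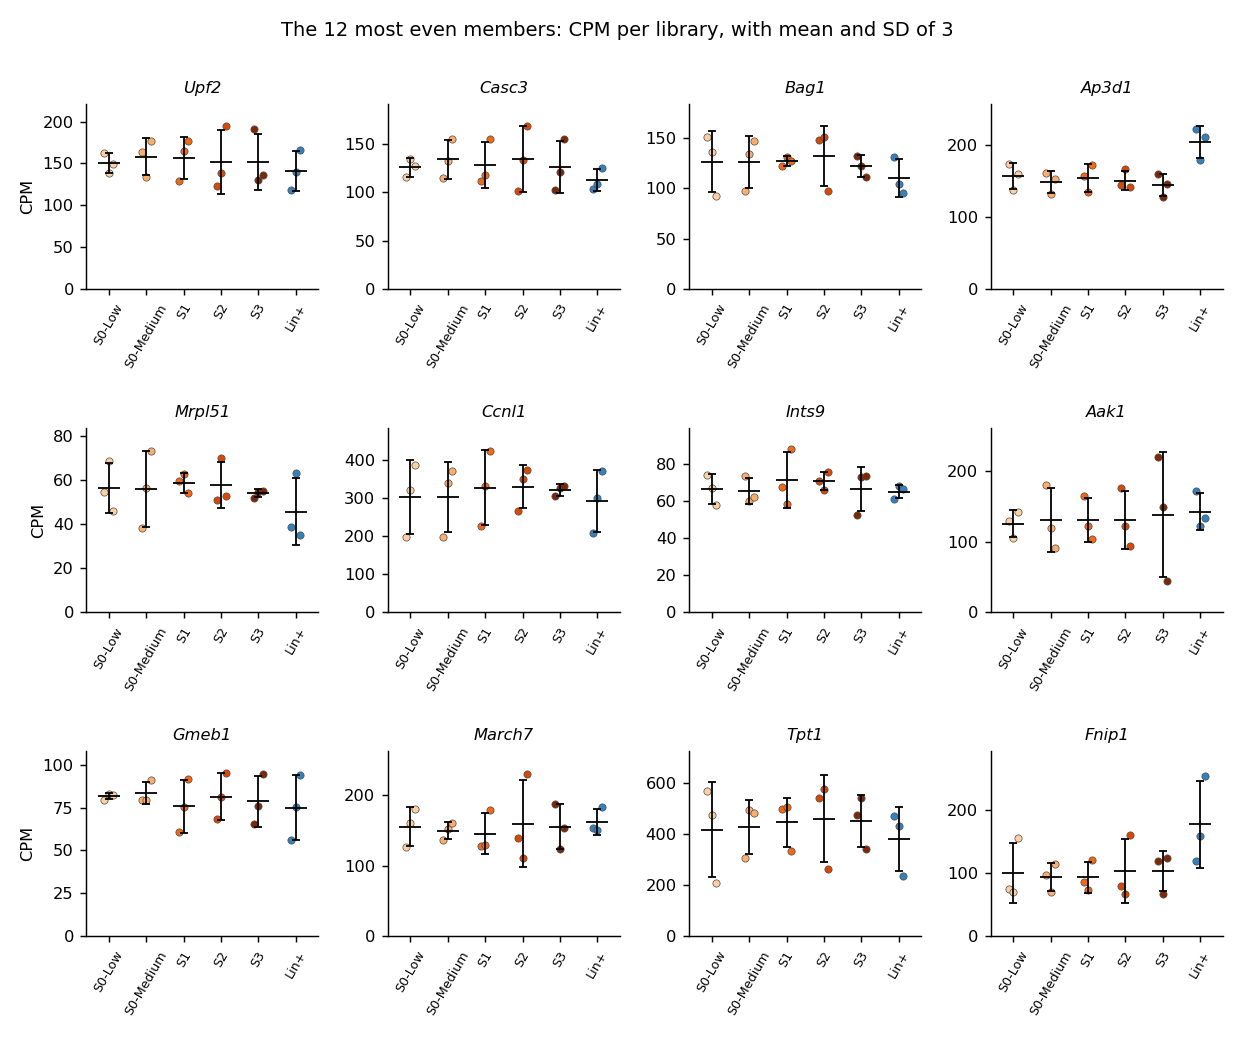
CPM by library total for the 12 most even members in the 5 erythroid populations (orange to brown) and Lin+ (blue). Points are libraries, horizontal bars are means and whiskers are SDs of 3; the erythroid means lie level while single libraries scatter, as for Aak1 in S3 (44.9 to 221 CPM).

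Promoter sequences of 3 of the 4 most even members are shown because their nascent RNA shares this flat pattern. Each is the 250 bases before a RefSeq transcript start, 5′ to 3′ on the gene's strand (GRCm38.p6), and capitals mark matches on either strand to the short motifs named below. The Upf2 window lies at chr2:5951219-5951468 on the plus strand, that of Bag1 at chr4:40948295-40948544 on the minus strand and that of Ap3d1 at chr10:80742276-80742525 on the minus strand.
Upf2: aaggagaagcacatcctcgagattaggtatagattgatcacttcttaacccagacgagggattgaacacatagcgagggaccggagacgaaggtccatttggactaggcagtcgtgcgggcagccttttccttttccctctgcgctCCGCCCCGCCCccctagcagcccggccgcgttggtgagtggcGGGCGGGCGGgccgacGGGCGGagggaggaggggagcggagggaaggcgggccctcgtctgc
Bag1: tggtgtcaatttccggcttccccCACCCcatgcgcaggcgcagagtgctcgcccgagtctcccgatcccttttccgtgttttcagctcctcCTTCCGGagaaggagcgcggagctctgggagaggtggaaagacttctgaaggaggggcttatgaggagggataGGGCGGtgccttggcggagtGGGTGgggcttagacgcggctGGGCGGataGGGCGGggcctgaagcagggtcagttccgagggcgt
Ap3d1: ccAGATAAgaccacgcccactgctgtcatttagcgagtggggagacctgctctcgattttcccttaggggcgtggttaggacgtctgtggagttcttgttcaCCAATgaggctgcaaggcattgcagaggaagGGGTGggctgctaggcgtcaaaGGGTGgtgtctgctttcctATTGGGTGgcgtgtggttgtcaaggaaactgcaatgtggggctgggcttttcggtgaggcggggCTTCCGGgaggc
The Upf2 window held 5 GC boxes, which begin 104, 99, 62, 58 and 46 bases before the start and partly overlap. The Bag1 window held 3 GC boxes, an ETS match and 2 KLF matches. The Ap3d1 window held no GC box, but 2 CCAAT boxes, 3 KLF matches, a GATA match at its far end and an ETS match 12 bases before the start. In these letters the 3 windows differed from each other.

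Windows of 300 bases (250 before and 50 after the start) were found for 129 members, 2353 of the genes past the floor and 27025 genes in all. The median GC content was 64.3% in members, 63.0% past the floor and 52.7% over all windows. The median ratio of observed to expected CpG was 0.879, 0.871 and 0.389. The GC box (letters GGGCGG) occurred in 73.6% of member windows, 72.2% past the floor and 35.9% of all. The YY1 motif (letters AAGATGG) occurred in 15.5% of member windows (20 of 129), 8.97% past the floor and 6.48% of all, and the CRE (letters TGACGT) in 20.9%, 15.6% and 7.64%. The ETS motif (letters CCGGAAG) was in 16.3%, 21.8% and 9.12%, and the NRF1 motif (letters GCATGCG) in 5.43%, 8.54% and 3.64%. The TATA box (letters TATAAA) was in 3.88%, 6.03% and 14.2%, the GATA motif (letters AGATAA) in 6.98%, 5.01% and 11.4%, and the KLF motif (letters CACCC) in 55.8%, 59.2% and 56.7%. CCAAT was found in 41.9%, 40.6% and 37.9%, and the E-box (letters CACGTG) in 9.30%, 10.7% and 7.24%. Members thus had GC-rich, CpG-rich, mostly TATA-less windows, as did the expressed genes from which they were drawn. These are letter matches only, and their shares were not tested.

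The members' gene bodies were also ordinary for expressed genes. Their median span was 38450 bp against 36316 bp past the floor, from 2193 bp for Mrpl51 upwards, and the median exon number of the most exon-rich transcript was 15 against 13. They lay on 20 chromosomes, with at most 16 on 1 chromosome. The members that lay closest together were Cisd2 and Ube2d3 on chromosome 3, with 14193 bp between them.

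The members' evenness was set beside the spread of the libraries, as a description. The coefficient of variation (CV, the SD as a percentage of the mean) of the 5 population means had a median of 6.85% over members and 24.2% over genes past the floor. Within populations, the median CV of members was 16.7%, and of genes past the floor 23.8%. The means varied less than the libraries within populations for 149 of the 150 members and for 50.3% of genes past the floor. Over the 15 single erythroid libraries, the ratio of highest to lowest had a median of 1.96 in members and 3.55 past the floor, and it was under 2 for 81 members (54% against 8.01%). By this measure the steadiest member was Cul3, the scaffold of a ubiquitin ligase, at 1.35, with 204 CPM as its lowest library and 275 CPM as its highest. Ap3d1 followed at 1.36, and Aak1 was the least steady at 4.92. Members' highest means were spread over the stages, with S2 highest for 53, S0-Medium for 33, S0-Low for 23, S1 for 22 and S3 for 19, and their lowest means fell in S3 for 45 and in S0-Low for 39.

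Because the rule used all 15 libraries, it was repeated on 2 of the 3 replicate numbers, and the replicate left out was then read. Genes chosen without replicate 1 had a median ratio over the 5 libraries of replicate 1 of 1.55, against 2.08 for all genes past the same floor, and 127 of the 150 were below that value. Without replicate 2 the ratio was 1.41 against 1.92, with 143 below it. Without replicate 3 it was 1.87 against 2.69, with 118 below it. The chosen genes were thus flatter than the rest in libraries that had not chosen them, but less flat than in the libraries that had, where the median ratios were 1.22, 1.21 and 1.18. Membership itself was less steady, since 73, 97 and 58 of the 150 members were chosen again. The 20 members chosen every time were Casc3, Ap3d1, Ccnl1, Ints9, Gmeb1, Zfyve26, Rsrc2, Cul3, Tmf1, Son, R3hdm1, Ddx5, Phip, Mark2, Zfp384, Hnrnpul1, Sav1, Csnk1a1, Uimc1 and Rab6. Upf2, which had the lowest ratio of the 150 members by library total, was not among them.

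The members depended on how the libraries were scaled. TMM, the trimmed mean of M-values, sets the scale from the middle of the gene-wise ratios in place of the total, and gave factors of 1.10 to 1.27 in S0-Low, 0.58 to 0.73 in S3 and 1.06 to 1.21 in Lin+. When the same rule was applied to TMM-scaled CPM, 0 of the 150 members were chosen again. On that scale each of the 150 members had its highest mean in S3 and a ratio between 1.49 and 2.29 (median 1.81, against 1.98 past the floor). Upf2 had TMM-scaled means of 127, 138, 151, 164 and 228 CPM from S0-Low to S3, and Casc3 106, 117, 124, 145 and 195 CPM. The members' median log2 difference between S3 and S0-Low was 0.83 under TMM (range 0.53 to 1.20) and -0.02 under library totals (range -0.30 to 0.30). The corresponding median was 0.68 under TMM and -0.17 under library totals over the genes past the floor from which the members were drawn, and -0.62 and -1.44 over all 17755 tested genes.

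The members' median differences between S3 and S0-Low follow from the rule and the scale factors and carry no test. Spiked-in RNA or cell counts that would fix the scale were not used here. The genes that TMM placed first in the same ranking were Ino80d (ratio 1.02) and Smarcc1 (1.06), which library totals ranked 1352nd and 1184th of 2897, and the 150 genes it chose had a median log2 difference of -0.81 between S3 and S0-Low by library total.

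**Figure D3:**
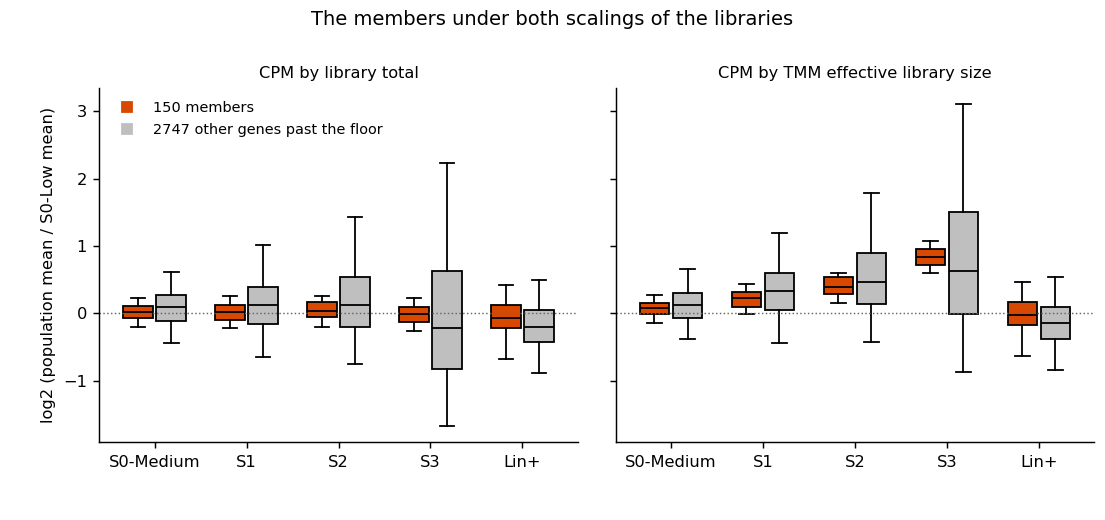
log2 ratio of each population mean to the S0-Low mean, by library total (left) and by TMM effective library size (right), for the 150 members (orange) and the 2747 other genes past the floor (grey). Boxes span the quartiles with the median, whiskers the 5th to 95th percentiles; the members sit at a median of -0.02 in S3 on the left and 0.83 on the right, with a narrow spread on both.

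The members belonged to many cellular systems. Members were counted in 18 lists of genes, mostly by function but including the reference genes described below. The share of members was largest for mRNA 3' end processing and decay, with 4 of 29 genes past the floor (13.8%, against 5.18% of all genes past the floor). These were Upf2, Cnot3 (a subunit of the CCR4-NOT deadenylase), Xrn1 (the cytoplasmic 5' exonuclease) and Smg5 (another nonsense-mediated decay factor). SR proteins, hnRNPs and other splicing regulators gave 7 of 52, the most even being Son (ratio 1.13), Rbm6 (1.15) and Rbm39 (1.17). Protein phosphatase and kinase subunits gave 6 of 54 (11.1%), led by Akt2 (1.11), Csnk1a1 (1.18) and Ppp1r12a (1.20). Chromatin remodellers and histone-modifying enzymes gave 7 of 69 (10.1%), led by Ep400 (1.16), Myst3 (1.17, Kat6a in RefSeq) and Smarce1 (1.18).

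Other lists held few or no members. None of 57 cytosolic ribosomal protein genes was a member, the most even of them being Rpl24 at a ratio of 1.33, and S3 was the lowest population for all 57. None of 28 snRNP and core splicing genes, and none of 79 genes of DNA replication, mitosis and chromosome structure, was a member. The median ratio was 2.66 for the ribosomal proteins, 1.82 for the core splicing genes and 1.96 for the replication and mitosis genes. Translation factors gave 1 of 45 (Eef1d), proteasome subunits 2 of 27 (Psma2 and Psmd13), ubiquitin enzymes 4 of 77 (Cul3, Usp19, Ube2d3 and Usp34), and nuclear pore and transport genes 2 of 41 (Xpot and Nup50). Vesicle coats and membrane traffic gave 3 of 55 (Ap3d1, Rab6 and Arf6), RNA polymerase II, its general factors and Mediator 2 of 43 (Gtf2b and Polr2a), chaperones 2 of 33 (Bag1 and Dnajc10) and DEAD or DEAH box helicases 2 of 26 (Ddx5 and Dhx8). Respiratory chain genes gave 1 of 11 (Ndufs4) and the actin and tubulin cytoskeleton 1 of 22 (Tubb5). With so few members per list, the shares are descriptions.

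Genes that laboratories commonly use as references were mostly uneven in nascent RNA by library total. Of 22 listed, 14 passed the floor and 1 was a member, Polr2a, the largest subunit of RNA polymerase II, with means of 418 CPM ± 51.0 (SD, n = 3) in S0-Low, 515 CPM ± 68.3 in S2 and 460 CPM ± 37.0 in S3 and rank 140. Ppib (ratio 1.40), Hprt (1.47) and Actb (1.57) came next. Actb had 2203 CPM ± 480 (SD, n = 3) in S0-Low, 1404 CPM ± 223 in S3 and 3972 CPM ± 761 in Lin+. Tbp had a ratio of 2.02, Rplp0 of 2.33, Eef1a1 of 2.47, Canx of 2.55, Sdha of 2.72, Ywhaz of 2.96, Rps18 of 3.16, Top1 of 3.31, Eif4a2 of 5.25 and Ppia of 5.37. Gapdh did not pass the floor because its S3 mean was 42.7 CPM, against 235 CPM in S0-Low. The other 7 below the floor were Cyc1, Gusb, Ipo8, Pgk1, Rpl13a, B2m and Tuba1a. Of the 14 past the floor, 12 were lowest in S3 by library total. On the TMM scale 8 of the 14 were, and the ratio was smaller for 10 and larger for 4, with a median of 1.68 in place of 2.51. Genes past the floor had a median of 1.89 by library total and 1.98 under TMM, and members 1.18 and 1.81, so the reference genes' median lay above both by library total and below both under TMM. Tbp (1.43), Actb (1.45) and Hprt (1.47) then had the lowest ratios of the 14, and Polr2a had a ratio of 1.97, with means of 352 CPM in S0-Low and 695 CPM in S3. None of the 14 was among the 150 most even genes on that scale.

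The members with the highest counts were Tubb5, a beta-tubulin, with an erythroid mean of 1095 CPM, and a set of RNA-binding proteins, Hnrnpa2b1 (872 CPM), the helicase Ddx5 (851 CPM), the speckle protein Son (836 CPM) and Rbm39 (807 CPM). Ep400 (503 CPM), a remodeller subunit, Polr2a (464 CPM) and the deubiquitinase Usp34 (448 CPM) completed the first 8. CPM is not corrected for transcript length, so these values do not rank the genes by expression. Ddx5 ranged from 619 to 1076 CPM and Son from 640 to 1056 CPM over the 15 erythroid libraries. The median member had a mean of 145 CPM, close to 158 CPM for genes past the floor, and all members together held a median of 2.84% of a library's counts.

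The rule did not use the Lin+ libraries. The erythroid means set beside them are those it chose to be level by library total. By library total, the members' median log2 ratio of the Lin+ mean to the mean of the 5 erythroid means was -0.08 (quartiles -0.26 and 0.12, range -0.95 to 0.97), against -0.25 past the floor. The Lin+ mean was within 1.25-fold of the erythroid mean for 103 members (68.7% against 43.4%) and over 1.5-fold away for 17 (11.3% against 32.9%). It fell between the lowest and highest erythroid means for 42 members (28% against 53.2%), above them for 38 (25.3% against 13.3%) and below them for 70 (46.7% against 33.6%), where the members' erythroid ranges are narrow by the rule. By library total, the Lin+ mean was thus close to the erythroid mean for most members but often just outside their narrow range.

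**Figure D4:**
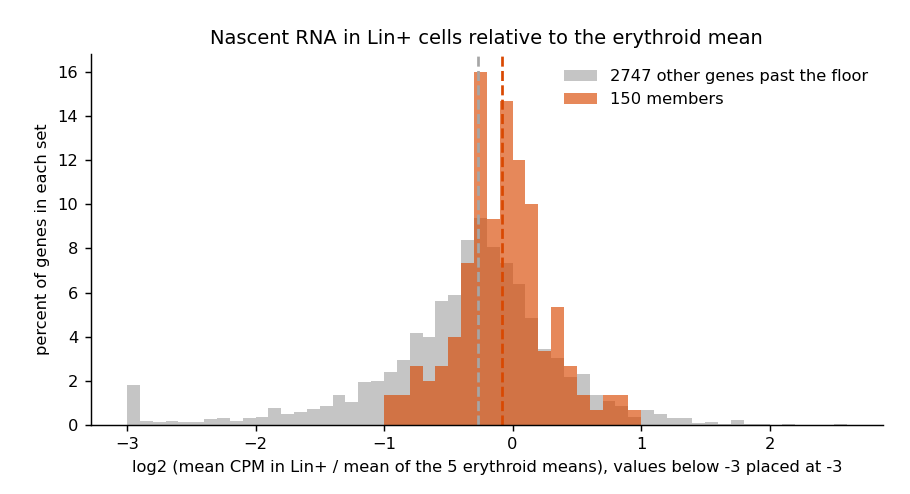
Distribution of the log2 ratio of the Lin+ mean to the mean of the 5 erythroid means (CPM by library total) for the 150 members (orange) and the 2747 other genes past the floor (grey), as percent of each set in bins of 0.1. Dashed lines are medians; the members cluster around -0.08 and run from -0.95 to 0.97.

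In the edgeR model of the 18 libraries with TMM scaling, all 150 members were tested, with a quasi-likelihood test and a threshold of 0.05 on the Benjamini-Hochberg adjusted p. Of these, 19 passed as lower in Lin+ than in the mean of the erythroid populations, where 7.35% of all tested genes and 27.0% of those past the floor did, and 2 passed as higher, where 22.6% and 2.83% did. The share of members that passed as lower was 12.7%, below that of genes past the floor. The members' median log2 difference was -0.32, against -0.44 past the floor and 0.17 over all tested genes. The erythroid side of this contrast holds the levels that the rule used, and under TMM all 150 members were highest in S3. Against single populations the members' median was -0.03 for S0-Low and -0.90 for S3, so the 19 and 2 follow in part from the rule and the scale factors. Leaving out Lin+ replicate 1, 2 or 3 reduced the 19 to 11, 9 and 9 and the 2 to 0, 1 and 1. With the replicate number as a block, 37 members passed as lower, where 10.6% of all tested genes and 39.9% of those past the floor did, and 3 as higher, where 24.9% and 4.90% did. With library totals in place of TMM the split turned from 2 and 19 to 8 higher and 8 lower, against 25.6% higher and 4.74% lower over all tested genes and 6.14% and 17.0% past the floor. The members' median was then -0.08, against -0.21 past the floor and 0.40 over all tested genes.

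The largest fall among members that passed was that of Myef2, named for its repression of the myelin basic protein gene. It read 71.3, 67.4 and 66.9 CPM in Lin+, and its 15 erythroid libraries ran from 101 to 162 CPM (median 131), so the groups did not overlap. All ranges here are CPM by library total, while the log2 differences and adjusted p come from the TMM fit. The log2 difference was -1.18 ± 0.22 (SE), with an adjusted p of 0.000519 in edgeR. Rad18, a ubiquitin ligase of DNA damage tolerance, read 89.8, 73.9 and 73.3 CPM in Lin+ and 110 to 220 CPM (median 148) in the erythroid libraries, again without overlap. Its log2 difference was -1.14 ± 0.27 (SE; edgeR adjusted p = 0.00309). The gene listed as 5830418K08Rik, which is Cep295, a centriole protein, in RefSeq, read 129, 185 and 166 CPM in Lin+ against 201 to 356 CPM (median 280). Its log2 difference was -1.06 ± 0.23 (SE; edgeR adjusted p = 0.00145).

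The rest of the 8 largest falls were in genes of translation, tRNA export, microRNA processing and the kinetochore. Hbs1l, which rescues stalled ribosomes, read 70.7, 97.1 and 90.0 CPM in Lin+ against 116 to 200 CPM (median 142; log2 difference -1.04 ± 0.21 (SE), edgeR adjusted p = 0.000823). Xpot, the exporter of tRNA, read 175, 154 and 126 CPM against 180 to 328 CPM (median 272; -0.996 ± 0.264 (SE), adjusted p = 0.00740). Both genes had Lin+ libraries wholly below the erythroid ones by library total, but those of Xpot overlapped them on the TMM scale, and Xpot no longer passed without Lin+ replicate 3 (adjusted p = 0.0683). Eef1d, an exchange factor of translation elongation, read 131, 134 and 63.1 CPM against 96.0 to 226 CPM, and Dgcr8, the partner of Drosha in microRNA processing, 58.8, 101 and 105 CPM against 92.1 to 197 CPM. These overlapped by library total, with log2 differences of -0.99 ± 0.30 (SE, adjusted p = 0.0172) and -0.96 ± 0.27 (SE, adjusted p = 0.00992), and no longer passed without Lin+ replicate 3 (Eef1d, adjusted p = 0.145) or replicate 1 (Dgcr8, adjusted p = 0.0827). Zwint, a kinetochore protein, read 111, 148 and 108 CPM in Lin+ and 133 to 260 CPM (median 210) in the erythroid libraries, which overlapped by library total, with a log2 difference of -0.98 ± 0.19 (SE) and an adjusted p of 0.000619 in edgeR.

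The remaining members that were lower were Rad17, Zfp655, Rbm15, Setd8, Asxl2, N4bp2, R3hdm1, Dlg1, Sav1, Ppp2r2d and Nup50, with log2 differences from -0.90 to -0.54. By the lists of genes by function, Xpot and Nup50 belonged to nuclear pore and transport, Eef1d to the translation factors, Rbm15 to the splicing regulators, Setd8 to the chromatin enzymes and Ppp2r2d to the phosphatase and kinase subunits, and the other 13 of the 19 to none of the lists.

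Beside these few calls, and 27.0% lower and 2.83% higher over genes past the floor, the whole lists gave the following counts in the same test. Lower in Lin+ were 50 of 79 genes of replication, mitosis and chromosome structure, 18 of 41 of nuclear pore and transport, 32 of 77 ubiquitin enzymes, 10 of 45 translation factors, 6 of 27 proteasome subunits, 6 of 29 of mRNA 3' end processing and decay and 11 of 54 phosphatase and kinase subunits. In the other lists by function the genes lower in Lin+ were those of RNA polymerase II and its factors (8 of 43), splicing regulators (9 of 52), vesicle coats and traffic (8 of 55), core splicing (4 of 28), chaperones (4 of 33), helicases (3 of 26), the respiratory chain (1 of 11), the cytoskeleton (2 of 22), chromatin enzymes (6 of 69) and ribosomal proteins (1 of 57). Higher in Lin+ were 12 of 22 cytoskeletal genes, none of which was a member, and 1 gene each of the splicing regulators, vesicle traffic and replication lists.

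Of the members higher in Lin+, Efhd2, a calcium-binding protein of the actin cytoskeleton, read 232, 181 and 199 CPM there and 80.3 to 146 CPM (median 101) in the erythroid libraries. Its log2 difference was 0.75 ± 0.18 (SE; edgeR adjusted p = 0.00456). Zfyve26, a protein of lysosome reformation, read 162, 157 and 197 CPM against 75.3 to 135 CPM (median 97.8), with a log2 difference of 0.59 ± 0.19 (SE; edgeR adjusted p = 0.0274). By library total neither gene's groups overlapped, but on the TMM scale both did, with Lin+ libraries of 219, 153 and 164 CPM against at most 158 CPM for Efhd2 and of 153, 133 and 162 CPM against at most 145 CPM for Zfyve26. Efhd2 no longer passed without Lin+ replicate 1 (adjusted p = 0.0742) and Zfyve26 without any of the 3 Lin+ replicates in turn. Under library totals Fnip1, Mef2a, Rac1, Akirin1, Glg1 and Ppp1r12a also passed as higher. Rac1, a GTPase of the actin cytoskeleton, read 223, 217 and 210 CPM in Lin+ and 103 to 172 CPM in the erythroid libraries, with a log2 difference of 0.71 and an adjusted p of 0.0053 by library total in edgeR, and of 0.46 with an adjusted p of 0.119 under TMM.

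Across all members and by library total, the 3 Lin+ libraries lay above the 15 erythroid libraries for 5 (Ap3d1, Zfyve26, Rac1, Akirin1 and Efhd2), which is 3.33% of members, where 10.1% of all tested genes and 1.97% of those past the floor did so. They lay below for 6 (Xpot, Rad18, Myef2, 5830418K08Rik, Rbm15 and Hbs1l), 4% of members, against 1.42% and 6.35%. On the TMM scale they lay above for 0 members, where 9.70% of all tested genes and 1.24% of those past the floor did so, and below for 10 (2.00% and 8.66%), which were Dgcr8, Rad18, Myef2, Sav1, 5830418K08Rik, Rbm15, Zwint, Ppp2r2d, Hbs1l and Zfp655. Ap3d1, ranked 4th for evenness in erythropoiesis, read 223, 180 and 212 CPM in Lin+ and at most 174 CPM in an erythroid library. Its log2 difference was 0.44 (edgeR adjusted p = 0.0601) by library total and 0.20 (adjusted p = 0.476) under TMM, so it passed under neither scaling without the replicate block. With the block it was 0.20 (edgeR adjusted p = 0.310) under TMM and 0.43 (adjusted p = 0.0173) by library total, a fit added after the data had been seen.

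**Figure D5:**
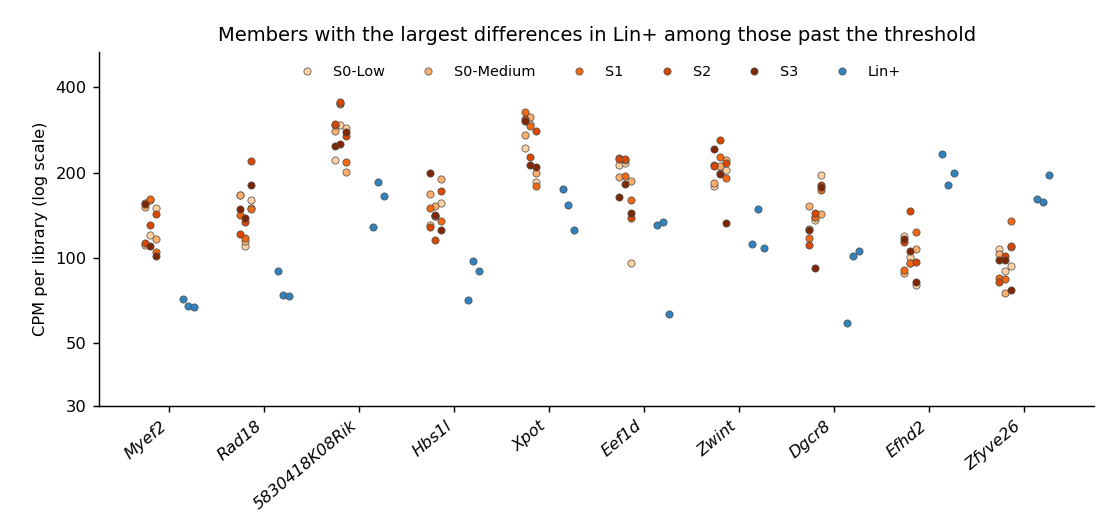
CPM by library total (log scale) in each library for the 8 members with the largest falls and the 2 with rises in Lin+ among those that passed the threshold. For each gene the 15 erythroid libraries are on the left (orange to brown by stage) and the 3 Lin+ libraries on the right (blue); on this scale Eef1d, Zwint and Dgcr8 overlap and the other 7 genes do not.

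Set against the erythroid populations separately, few members, and few of all tested genes, passed beside the earliest cells under either scaling. Against S0-Low, 0 of 150 passed in either direction in edgeR, where 0.496% of all tested genes passed as higher and 0.220% as lower under TMM, and 0.507% and 0.237% by library total. At an unadjusted p under 0.05, 4 members were higher and 7 lower under TMM, where 6.89% and 2.96% of all tested genes were, and 4 and 8 by library total, where 6.67% and 3.27% were. Against S0-Medium, 1 was higher and 2 were lower under both scalings (2.64% and 1.29% of all tested genes under TMM, 2.82% and 1.30% by library total).

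Beside the later stages the counts differed with the scaling. Against S1, 1 was higher and 6 were lower under TMM (10.9% and 4.66% of all tested genes, with 2.11% and 15.6% past the floor). By library total 2 were higher and 3 lower (12% and 3.62%, with 3.31% and 11.7% past the floor). Against S2, 3 were higher and 5 lower by library total (18.2% and 5.38%, with 4.11% and 17.6% past the floor). Against S3, 5 were higher and 5 lower by library total (40.1% and 7.54%, with 17.1% and 23.4% past the floor). Under TMM 0 were higher and 17 lower against S2 (16.3% and 8.34%, with 2.21% and 28.2% past the floor). Against S3, 0 were higher and 97 lower under TMM (28.2% and 14.1%, with 3.24% and 47.8% past the floor). None was higher against S2 or S3 under TMM at an unadjusted p under 0.05 either, where 22.5% and 33.9% of all tested genes were. Members chosen to be level by library total were all highest in S3 on the TMM scale, so their TMM counts against S2 and S3 follow in part from the rule and the scale factors, and nothing is read from them. The 5 comparisons share the Lin+ libraries.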

How the data were processed

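Nascent RNA was measured in 18 libraries of sorted fetal liver cells, grouped by the labels into 6 populations of 3. The authors prepared stranded libraries with 14 PCR cycles and no molecular identifiers, quantified them with kallisto 0.43.0 (submitters' processing notes, which also name GRCm38) and deposited whole-number counts per gene, neither normalized nor pooled. The transcript set and the treatment of introns are not given in the sources used here. Near-identical gene copies can share counts. Totals ran from 9452476 to 40567976 counts.

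CPM by library total, population means and ratios were computed in Python 3.11.15 (pandas 2.3.3, numpy 2.4.6, matplotlib 3.10.9). Symbols came from a names table, and places, spans and promoters from RefSeq (GRCm38.p6), with 149 members placed and 9 matched through an older symbol. Exons were counted in the gencode vM1 annotation. All 18 libraries entered 1 edgeR 4.0.16 model (R 4.3.3) with population as factor, TMM scaling and filterByExpr (17755 genes), tested by two-sided quasi-likelihood tests with Benjamini-Hochberg adjustment over all tested genes. edgeR estimated a common biological coefficient of variation of 0.771. The fit was tested on simulated data.

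The pairing of replicate numbers was checked: deviations of Lin+ from its group mean correlated with those of the same-numbered erythroid mean at r = 0.159, 0.223 and 0.219 across genes, all above 0.1. A blocked fit was therefore made for Lin+ against the erythroid mean. It was not made for the comparisons with separate populations. The counts by list and the p-values of named genes come from the fit without the block, unless the block is named. Among single pairs of populations the lowest correlation was 0.0263. The labels do not say what a number stands for.

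The members, the lists and the tests were chosen with earlier results of these data known. Genes were named by rule: the 12 lowest ratios, 4 genes on each side of the cut, the 8 highest mean CPM, up to 8 rises and 8 falls in Lin+ among those past the threshold, the reference genes, and the 3 most even of each list with at least 5 members. Results for 2 further reference genes are not reported here. The smaller lists' members, the 20 chosen every time, the non-overlapping genes and Cul3's library ratio were named after their values were seen. Alternatives were library totals, RLE, DESeq2 1.42.0, no filter, at least 10 counts in every library, a replicate block, each library left out, globin and mitochondrially encoded genes left out, a robust fit, and changes to the rule. Library totals with the block were added after seeing the data. Exon counts apart, no coordinate of another build was used.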

Additional observations from a re-analysis of the deposited data

How the results depend on the processing

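Counts of members in Lin+ moved with the fit. Members higher, 2 as reported, were 8 with library totals, 4 with RLE factors, 4 with DESeq2, 4 with at least 10 counts in every library, 1 with no filter and 0 to 3 with 1 library left out, where the 0 came without Lin+ replicate 1. Members lower, 19 as reported, were 8 with library totals, 9 with RLE factors, 9 with no filter, 7 with at least 10 counts in every library and 9 to 23 with 1 library left out; without Lin+ replicates 1, 2 and 3 in turn they were 11, 9 and 9. With the replicate block they were 3 higher and 37 lower, the 21 reported calls all included, and with library totals and the block, added after seeing the data, 10 higher and 13 lower. DESeq2 gave 14 lower, the robust fit 21, and leaving out globin and mitochondrially encoded genes 19. Myef2, Rad18, 5830418K08Rik, Hbs1l and Zwint passed as lower in each of the 27 alternatives. Xpot (without Lin+ replicate 3, adjusted p = 0.0683), Eef1d, Dgcr8, Efhd2 (without Lin+ replicate 1, adjusted p = 0.0742) and Zfyve26 lost their call in 1, 2, 2, 1 and 4 of the 27 without a change of direction. Zfyve26 lost it without each Lin+ replicate and with no filter (highest adjusted p = 0.144).

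Of the 150 members, the rule kept 0 with TMM effective library sizes, 78 with the median of 3 in place of the mean, 95 with a floor of 100 CPM, 125 with a floor of 20 CPM, 127 with totals taken without globin and mitochondrially encoded genes, and 58 to 97 with a replicate number left out. Taking 100 or 200 genes kept 100 and 150. With TMM-scaled CPM, the level of 11 of the 12 most even members moved by more than its SD in S3, and 0 of 12 in S1. The cause of these changes was not tested. The 3 replicates per population limit the precision of each mean, and S0-Low holds the shallowest library.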
